A study of Drosophila melanogaster with 16 samples.

Results

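The UDP-glycosyltransferase (UGT) genes of Drosophila melanogaster were taken as every gene of the count table whose NCBI symbol begins with Ugt followed by a digit. This rule gave 35 of the 17207 genes, and it used no measured value. The data were RNA-seq counts of whole larvae of the third instar in 16 libraries, 4 for each of 4 groups. Larvae carried mtDNA of the Alstonville or the Dahomey mitotype and were fed on food with 1 part protein to 2 or to 16 parts carbohydrate, written 1:2 and 1:16 P:C. By the study's methods every group had the same w1118 nuclear background, obtained with balancer chromosomes and backcrossing, the 2 diets were isocaloric mixtures of yeast, treacle, semolina and sucrose, and the animals were whole female larvae taken while wandering. The labels give neither sex nor age, and describe the replicates only as independent. Levels are given as CPM, counts per 1000000 counts of the library, scaled between libraries with edgeR's TMM factors, and all differences as log2 fold changes. A change was called at a Benjamini-Hochberg adjusted p under 0.05 in edgeR's quasi-likelihood test over all 12750 genes that reached 0.25 CPM in at least 4 libraries.

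UGTs join a sugar, taken from a UDP-sugar, to small lipophilic molecules, and the conjugates are more soluble and more easily excreted. Insect enzymes mostly use UDP-glucose. They are known for the clearance of plant compounds and insecticides, for the removal of odorants and for the conjugation of pigment and cuticle precursors, and in larvae much of this chemistry is placed in the midgut, the fat body and the Malpighian tubules, the insect kidney. Several members of the family have been named more than once. Ugt35C1, formerly Ugt86Dd, is known for its part in the resistance of larvae to nicotine, and Ugt36A1, or Dorothy, is known as a marker of the larval blood organ and of the cells beside the heart.

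The members lay at 19 places of the genome when genes within 20 kb of each other were joined, with 11 on chromosome arm 2L, 5 on 2R, 2 on 3L and 17 on 3R (Release 6 plus ISO1 MT). The largest neighbourhood held 9 members on 3R between 11151026 and 11177910, in the order Ugt302K1, Ugt302E1, Ugt302C1, Ugt35E1, Ugt35E2, Ugt35B1, Ugt35A1, Ugt304A1 and Ugt303A1. These were formerly numbered Ugt86D, as was Ugt35C1, which lay apart at 3R, 11126597 to 11128328. Neighbourhoods of 3 members held Ugt37C2, Ugt37E1 and Ugt37D1 (2L, 16794211 to 16801584), Ugt36F1, Ugt36D1 and Ugt36E1 (2L, 18819344 to 18829059), and Ugt303B3, Ugt303B1 and Ugt303B2 (3R, 23532945 to 23538908). Ugt49B1 stood beside Ugt49C1 (2R, 21212880 to 21217779) and Ugt37A2 beside Ugt37A3 (3R, 12739642 to 12743680). The treatment of strand and of reads that fit several genes is not given in the sources used here, so counts of members with close paralogs, and of 5 members that share exonic bases with another gene, are uncertain. The shared stretch was 400 bases for Ugt36A1 with CG15418, 90 for Ugt49B1 with CG44245, 59 for Ugt37A1, 48 for Ugt36E1 with CG17597 and 11 for Ugt307A1 with Pvf2.

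Libraries held 24869991 to 31896525 counts, at which 3 counts corresponded to 0.0789 to 0.139 CPM. Markers of the wandering stage that the methods state were nearly absent in most 1:16 P:C libraries. The 6 salivary glue genes, which are switched on late in the last larval instar, summed to 8898 to 16001 CPM in the 8 libraries of the 1:2 P:C diet and to 4.2 to 6.6 CPM in 7 of the 8 libraries of the 1:16 P:C diet. Fbp1, a fat body receptor gene of the same late stage, had 9784 to 43377 CPM in the former and 9.93 to 13.8 CPM in the same 7 of the latter. Lsp2, a storage protein gene, had 14221 to 24937 CPM on 1:2 P:C, 8.12 to 157 CPM in Alstonville and 490.5 to 13065 CPM in Dahomey larvae on 1:16 P:C. Diet and stage therefore cannot be told apart in any diet difference below. Of the other marker lists, the 6 fat body genes summed to 47618 to 145221 CPM on 1:2 P:C and to 5380 to 48673 CPM on 1:16 P:C, the 9 midgut genes to 3919 to 16134 and 14188 to 26260 CPM, and the 10 Malpighian tubule genes to 532 to 788 and 475 to 776 CPM. No marker of these 3 lists was at 0 throughout a group. In Alstonville larvae 4 of 6 fat body genes fell from 1:2 to 1:16 P:C and none rose, 4 of 9 midgut genes rose and 3 fell, and 6 of 10 Malpighian tubule genes rose and 2 fell, where 30.6% of all genes rose and 29.3% fell. In Dahomey larvae 3 of 6 fat body genes fell and none rose, while the midgut and tubule counts were the same as in Alstonville, and over all genes 24.6% rose and 24.4% fell. The 8 testis genes summed to 0.402 to 87.6 CPM in Alstonville and 0.729 to 213 CPM in Dahomey larvae on 1:2 P:C, and to 0.266 to 4.48 and 12.6 to 37.1 CPM on 1:16 P:C, where 1 of them was at 0 in each mitotype. The testis genes were listed as absent from female larvae, the sex that the methods state. The sex of the larvae is therefore uncertain. The part of these tissues in the UGT differences was not tested, and with whole larvae fewer cells of a type cannot be told apart from less RNA per cell.

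There were 3 libraries that stood apart. Dahomey 1:16 P:C replicate 2 had 2639 CPM of glue transcripts, Alstonville 1:2 P:C replicate 4 had the highest fat body sum of all (145221 CPM, the others of its group at most 73633), and Dahomey 1:2 P:C replicate 4 had the highest testis sum (213 CPM). For the UGT genes the first of these lay nearest to the 1:2 P:C mean of its mitotype for 22 of the 25 members called between diets in Dahomey (77.3% of all genes called). Alstonville 1:2 P:C replicate 4 lay nearest to the 1:16 P:C mean for 20 of the 26 members called in Alstonville (63.0% of all genes called), and it was the highest of its group for 24 of 31 members. The share of all genes for which that library was the highest was not counted. Dahomey 1:2 P:C replicate 4 was nearest to the other diet for 12 of 25 members (51.3% of all genes called). The counts of members called are therefore also given without these 3 libraries, a choice made after the values were seen.

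**Figure D1:**
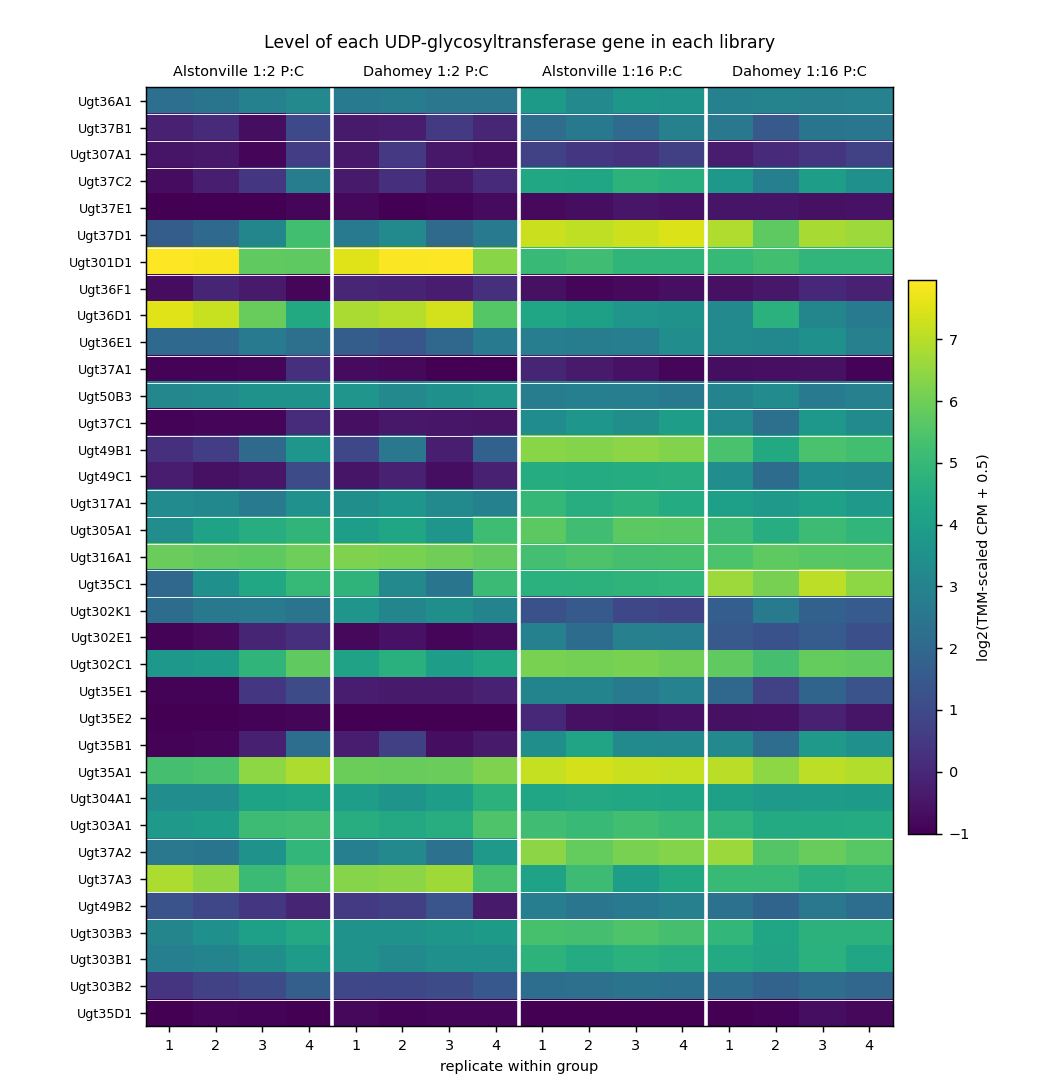
Level of each of the 35 UGT genes (rows, in chromosome order, with thin lines between neighbourhoods) in each of the 16 libraries (columns, 4 per group), as log2 of TMM-scaled CPM plus 0.5. Ugt301D1, Ugt36D1 and Ugt37A3 are bright on 1:2 P:C, Ugt37D1, Ugt49B1 and Ugt37A2 on 1:16 P:C, and Alstonville 1:2 P:C replicate 4 is lighter than its group in 24 of 31 tested rows.

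Of the 35 members, 31 were tested. The 4 that were not, Ugt37E1, Ugt37A1, Ugt35E2 and Ugt35D1, had 0 to 16 counts in any library. Ugt35D1 had no count in the 4 libraries of Alstonville 1:16 P:C, and Ugt35E2 none in the 4 of Dahomey 1:2 P:C, each of which allows at most 3 counts per library. Ugt37C1 and Ugt302E1 were tested only because they reached the minimum on 1:16 P:C, and Ugt36F1 only because it reached it on 1:2 P:C, so a diet difference in these 3 was built into their testing. The transcripts of all members summed to 749, 697, 502 and 645 CPM in Alstonville and 694, 749, 786 and 552 CPM in Dahomey larvae on 1:2 P:C, against 996, 963, 984 and 993 CPM and 893, 638, 886 and 764 CPM on 1:16 P:C. The sum was thus higher on 1:16 P:C in every Alstonville library, while the Dahomey groups overlapped. Its mean was 648 ± 106 and 695 ± 103 CPM (SD, n = 4) in Alstonville and Dahomey larvae on 1:2 P:C, and 984 ± 15.0 and 795 ± 121 CPM on 1:16 P:C.

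The members that made up this sum were different ones on each diet. Per kilobase of gene model, Ugt301D1 was the most abundant member on 1:2 P:C, with a mean of 73.6 CPM per kb in Alstonville and 94.2 in Dahomey larvae. Ugt36D1, Ugt37A3 and Ugt35A1 followed, at 44.9, 42.9 and 39.4 CPM per kb in Alstonville larvae, and the libraries of these 4 genes overlapped there. On 1:16 P:C, Ugt35A1 came first, at 84.6 in Alstonville and 65.9 CPM per kb in Dahomey larvae. It was followed by Ugt37D1 in Alstonville (79.3 CPM per kb) and by Ugt35C1 in Dahomey larvae (58.1 CPM per kb). Ugt301D1, Ugt36D1 and Ugt37A3 together held 49.3% of the UGT sum in Alstonville and 54.0% in Dahomey larvae on 1:2 P:C. On 1:16 P:C the leading members were Ugt37D1, Ugt35A1 and Ugt49B1 in Alstonville larvae, with 39.1% of the sum, and Ugt35A1, Ugt35C1 and Ugt37D1 in Dahomey larvae, with 38.9%.

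Most tested UGT genes differed between the diets in each mitotype. In Alstonville larvae 26 of 31 members were called, against 59.9% of all genes tested, and in Dahomey larvae 25 of 31, against 49%. In Alstonville larvae 20 members rose from 1:2 to 1:16 P:C (30.6% of all genes rose) and 6 fell (29.3% of all genes). In Dahomey larvae 19 rose (24.6% of all genes) and 6 fell (24.4% of all genes). The median log2 fold change of the tested members was 1.32 in Alstonville and 1.04 in Dahomey larvae, where that of all genes was -0.11 and -0.12. Over the 28 members that reached the minimum on each diet by itself, 18 rose and 6 fell in Alstonville and 17 rose and 6 fell in Dahomey larvae, where 32.2% and 25.7% of such genes rose. The diets had no overlapping libraries for 26 of 31 members in Alstonville (53.2% of all genes) and for 25 of 31 in Dahomey larvae (45.2% of all genes). Without the 3 libraries that stood apart, 29 and 26 members were called (72.5% and 57.8% of all genes).

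Nearly the same members were called in both mitotypes. Of the 26 called in Alstonville and the 25 called in Dahomey larvae, 24 were shared, which was 92.3% of the first list and 96.0% of the second, and all 24 had the same direction. Over all genes the shared calls were 71.5% and 87.4% of the lists. In both mitotypes 18 members rose and 6 fell. Over all 12750 genes tested, 5449 were called in both mitotypes with the same direction, and those that rose and those that fell were not counted apart. Ugt36A1 and Ugt305A1 were called in Alstonville larvae alone and Ugt35C1 in Dahomey larvae alone, and Ugt303A1, Ugt304A1, Ugt307A1 and Ugt36F1 in neither. No member was called for the difference between the mitotypes in their diet response, as described below.

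**Figure D2:**
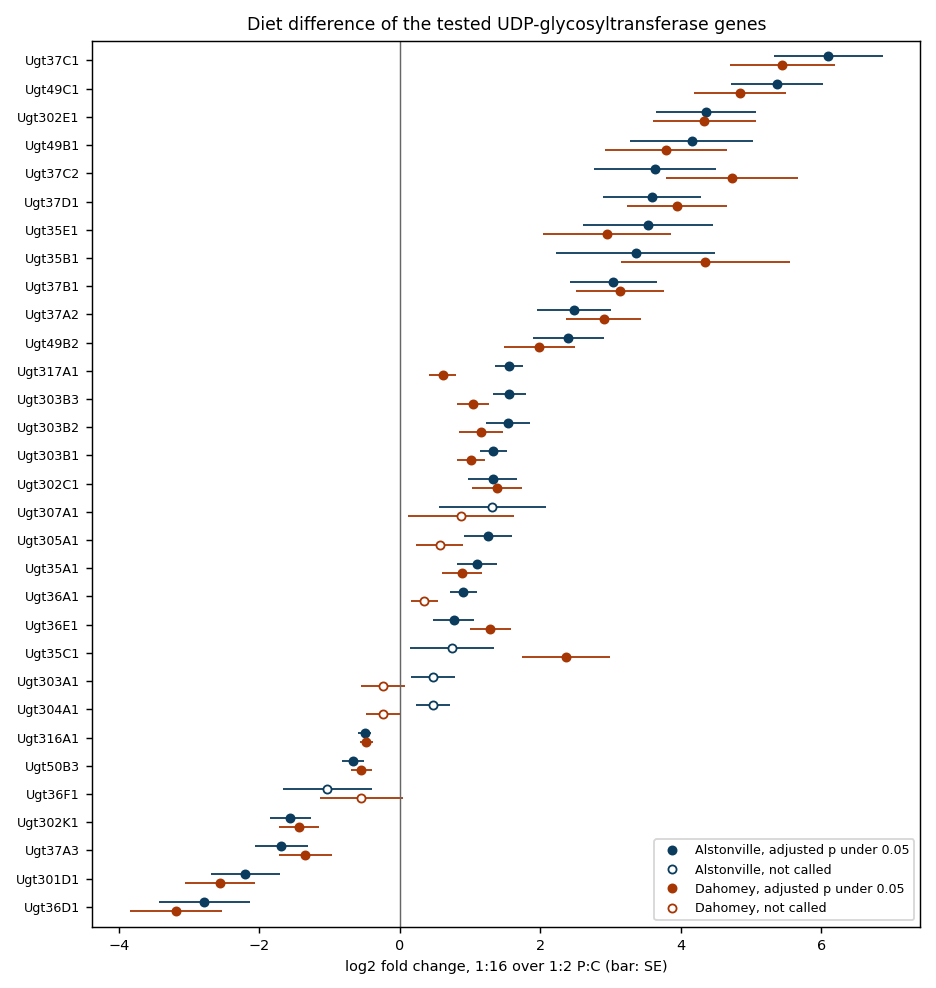
Log2 fold change from 1:2 to 1:16 P:C (x axis, points, with SE bars) of the 31 tested UGT genes (y axis, ordered by the value in Alstonville), for Alstonville (blue) and Dahomey (brown) larvae, 4 libraries per group. Filled points passed an adjusted p of 0.05, with 20 genes higher and 6 lower in Alstonville and 19 higher and 6 lower in Dahomey larvae.

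In Alstonville larvae the steepest rises over all libraries were those of Ugt37C1, Ugt49C1 and Ugt302E1, genes that were nearly silent on 1:2 P:C. Of these, Ugt37C1 and Ugt302E1 reached the minimum only on 1:16 P:C, so their rise was built into their testing. In Dahomey larvae Ugt37C2 and Ugt35B1 had values above that of Ugt302E1 (4.73 and 4.35 against 4.33). Ugt37C1, a single-exon gene (2R, 16843296 to 16845038, minus strand), had 0.0294, 0.0527, 0.0526 and 0.603 CPM in Alstonville and 0.139, 0.251, 0.221 and 0.191 CPM in Dahomey larvae on 1:2 P:C, and 9.75, 12.5, 10.2 and 15.5 CPM in Alstonville and 8.99, 4.41, 13.3 and 9.11 CPM in Dahomey larvae on 1:16 P:C. The groups of the 2 diets were far apart, and the highest 1:2 P:C library was Alstonville replicate 4, with 15 counts where the other 3 had 1 or 2. Ugt37C1 rose by 6.10 (SE 0.77, adjusted p = 2.31e-05) in Alstonville and 5.45 (SE 0.75, adjusted p = 1.19e-04) in Dahomey larvae, and the ratio of the group means was 65 in Alstonville and 44.6 in Dahomey larvae. Ugt49C1 (2R, 21215435 to 21217779, minus strand) had 0.323, 0.158, 0.237 and 1.57 CPM in Alstonville and 0.208, 0.394, 0.127 and 0.382 CPM in Dahomey larvae on 1:2 P:C, and 22.9, 22.5, 23 and 23.3 CPM in Alstonville and 9.87, 4, 9.76 and 8.76 CPM in Dahomey larvae on 1:16 P:C. Its 1:16 P:C libraries again stood above every 1:2 P:C library, and those of Dahomey were all below those of Alstonville. The log2 fold change of Ugt49C1 was 5.37 (SE 0.65, adjusted p = 1.69e-05) in Alstonville and 4.85 (SE 0.65, adjusted p = 1.05e-04) in Dahomey larvae. Ugt302E1 (3R, 11154626 to 11156513, plus strand) had 0.0294, 0.0791, 0.447 and 0.644 CPM in Alstonville and 0.0694, 0.179, 0.0633 and 0.0956 CPM in Dahomey larvae on 1:2 P:C, and 7.11, 4.03, 6.95 and 6.61 CPM in Alstonville and 2.31, 1.89, 2.56 and 1.76 CPM in Dahomey larvae on 1:16 P:C, with 1 to 17 counts in the 1:2 P:C libraries. It rose by 4.36 (SE 0.72, adjusted p = 1.68e-04) in Alstonville and 4.33 (SE 0.73, adjusted p = 4.47e-04) in Dahomey larvae. Without Alstonville 1:2 P:C replicate 4 the Alstonville fold changes were 7.92 for Ugt37C1, 6.56 for Ugt49C1 and 5.02 for Ugt302E1, the last then below Ugt35B1 (6.23), Ugt37C2 (5.69) and Ugt49B1 (5.43).

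Family 37 held 8 members, of which 5 rose in both mitotypes, 1 fell in both and 2 were not tested. Over all 31 tested members 18 rose in both and 6 fell. Among the 5 was Ugt37C1, tested only through 1:16 P:C. Ugt37D1 (2L, 16799025 to 16801584, plus strand) had the largest gain in amount, with 2.62, 3.69, 8.13 and 37.5 CPM in Alstonville and 6.14, 8.96, 3.76 and 5.74 CPM in Dahomey larvae on 1:2 P:C, and 150.3, 137, 154 and 178 CPM in Alstonville and 119, 52.2, 109.8 and 98.3 CPM in Dahomey larvae on 1:16 P:C. Alstonville 1:2 P:C replicate 4 was more than the other 3 of its group and yet below every 1:16 P:C library. The log2 fold change of Ugt37D1 was 3.59 (SE 0.70, adjusted p = 6.26e-04) in Alstonville and 3.95 (SE 0.71, adjusted p = 6.74e-04) in Dahomey larvae, and 5.01 in Alstonville larvae without that library, which likewise moved Ugt37C2 to 5.69 and Ugt37B1 to 3.84. Its neighbour Ugt37C2 rose by 3.63 and 4.73 (adjusted p = 0.00263 and 0.00121), from 0.118 to 6.2 CPM to 6.79 to 27.5 CPM over both mitotypes, while Ugt37E1, which lies between the pair, had at most 6 counts in any library. Ugt37B1 (2L, 6225048 to 6226842, plus strand), a gene of low level, had 0.382, 0.553, 0.132 and 1.45 CPM in Alstonville and 0.278, 0.323, 0.949 and 0.478 CPM in Dahomey larvae on 1:2 P:C, and 4.06, 5.64, 3.89 and 7.02 CPM in Alstonville and 5.46, 2.31, 5.03 and 5.24 CPM in Dahomey larvae on 1:16 P:C. It rose by 3.04 (SE 0.62, adjusted p = 8.69e-04) in Alstonville and 3.14 (SE 0.62, adjusted p = 0.00121) in Dahomey larvae, and no 1:2 P:C library reached the lowest 1:16 P:C library, which was Dahomey replicate 2.

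Ugt37A2 and Ugt37A3 face each other tail to tail with 540 bases between them, and they moved in opposite directions. Ugt37A2 had 5.56, 5.03, 11.2 and 30.2 CPM in Alstonville and 6.77, 8.78, 4.62 and 13.4 CPM in Dahomey larvae on 1:2 P:C, and 84.1, 57, 70.5 and 78 CPM in Alstonville and 97, 46.6, 58.5 and 49.4 CPM in Dahomey larvae on 1:16 P:C. The diets did not overlap in either mitotype. Ugt37A2 rose by 2.48 (SE 0.53, adjusted p = 0.00114) in Alstonville and 2.90 (SE 0.54, adjusted p = 7.64e-04) in Dahomey larvae, and by 3.32 in Alstonville larvae without 1:2 P:C replicate 4. Ugt37A3 had 116, 88.1, 34.2 and 47.4 CPM in Alstonville and 79.9, 84.3, 101 and 40.4 CPM in Dahomey larvae on 1:2 P:C, and 18, 34.4, 15.3 and 21.1 CPM in Alstonville and 33, 32.8, 25.8 and 28.6 CPM in Dahomey larvae on 1:16 P:C. On 1:2 P:C its libraries fell into high and low ones, the low ones being Alstonville replicates 3 and 4 and Dahomey replicate 4, and in Alstonville the diets overlapped by 1 library on either side. The log2 fold change of Ugt37A3 was -1.68 (SE 0.38, adjusted p = 0.00182) in Alstonville and -1.35 (SE 0.38, adjusted p = 0.00932) in Dahomey larvae.

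All 3 members of family 49 were called higher in both mitotypes, where 18 of all 31 tested members were. With so few members this gives no result about the family. Ugt49B1, beside Ugt49C1 on the same strand, had 0.647, 1.05, 3.79 and 12.6 CPM in Alstonville and 1.42, 5.56, 0.348 and 2.9 CPM in Dahomey larvae on 1:2 P:C, and 81.4, 78, 83 and 75.2 CPM in Alstonville and 41.3, 21.1, 41.3 and 37.6 CPM in Dahomey larvae on 1:16 P:C. The spread on 1:2 P:C was wide, from 0.348 to 12.6 CPM, but no library reached the 1:16 P:C levels. Ugt49B1 rose by 4.15 (SE 0.88, adjusted p = 0.00111) in Alstonville and 3.79 (SE 0.87, adjusted p = 0.00289) in Dahomey larvae, and by 5.43 without Alstonville 1:2 P:C replicate 4 and 4.46 without Dahomey 1:2 P:C replicate 2. CG44245, with which it shares 90 exonic bases, had 140 to 877 CPM over all libraries. Ugt49B2, on 3R and far from this pair, rose by 2.40 and 1.98 (adjusted p = 0.00119 and 0.0055), from 0.287 to 2.09 CPM to 3.17 to 6.93 CPM.

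**Figure D3:**
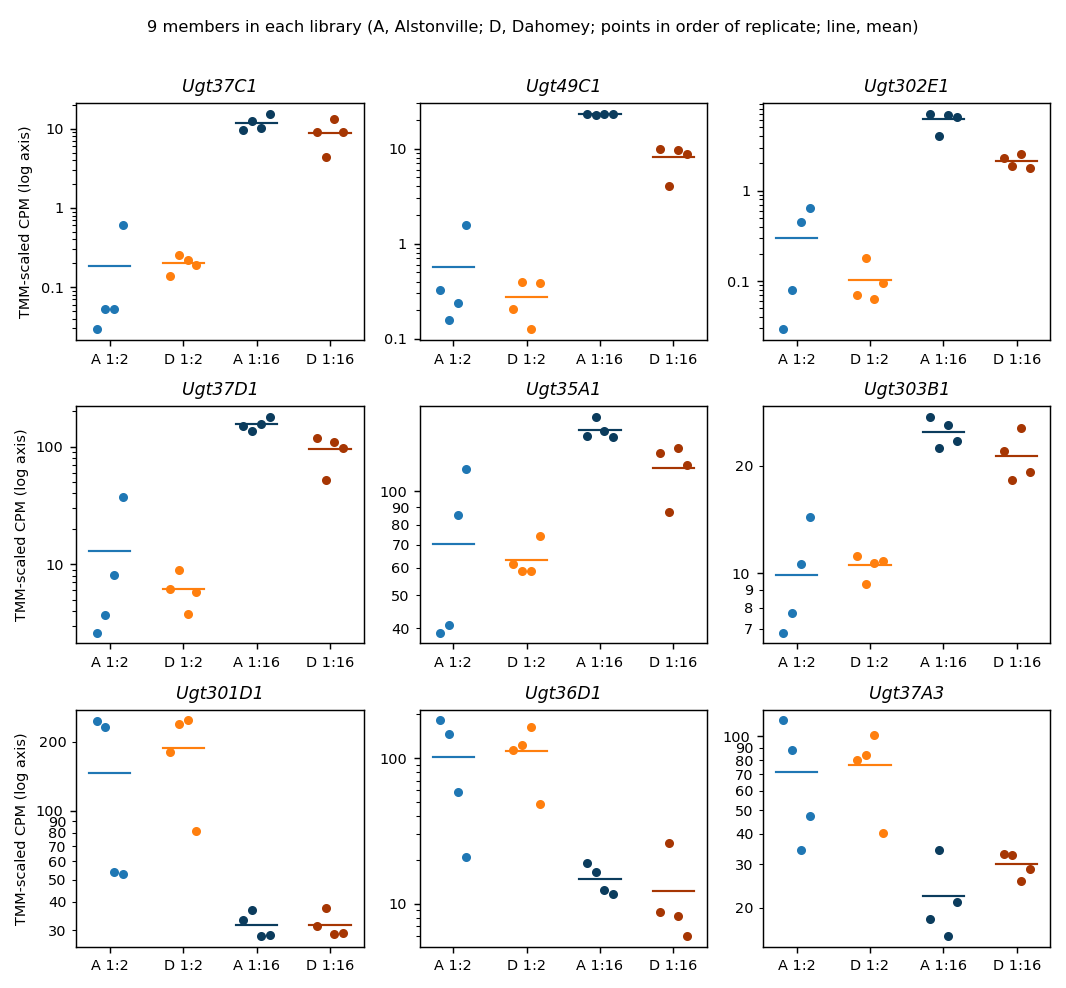
TMM-scaled CPM (y axis, log scale, different in each panel) of 9 UGT genes in each library of the 4 groups (x axis; A, Alstonville; D, Dahomey; points in order of replicate number, line at the mean). Of these, 6 were higher and 3 lower on 1:16 P:C in both mitotypes, the fourth Alstonville 1:2 P:C point lies toward the 1:16 P:C level in most panels, and the second Dahomey 1:16 P:C point toward the 1:2 P:C level.

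The 3 members of family 303 that lie together on 3R rose in step and by less. Ugt303B3 had 8, 10.6, 16.1 and 20.5 CPM in Alstonville and 11.3, 11.4, 12.7 and 14.2 CPM in Dahomey larvae on 1:2 P:C, and 39.8, 39.2, 44.5 and 39.2 CPM in Alstonville and 29.9, 19.3, 26.6 and 26.4 CPM in Dahomey larvae on 1:16 P:C. Ugt303B1 had 6.82, 7.72, 10.6 and 14.4 CPM in Alstonville and 11.2, 9.32, 10.7 and 10.8 CPM in Dahomey larvae on 1:2 P:C, and 27.4, 22.4, 26.1 and 23.5 CPM in Alstonville and 22, 18.3, 25.6 and 19.2 CPM in Dahomey larvae on 1:16 P:C. Ugt303B2, the lowest of the neighbourhood, had 0.794, 1.16, 1.58 and 2.74 CPM in Alstonville and 1.35, 1.4, 1.58 and 2.26 CPM in Dahomey larvae on 1:2 P:C, and 4.18, 4.48, 4.96 and 4.67 CPM in Alstonville and 4.07, 3.13, 4.15 and 3.41 CPM in Dahomey larvae on 1:16 P:C. For each of the 3 genes all 1:16 P:C libraries exceeded all 1:2 P:C libraries of their mitotype, and the Alstonville 1:2 P:C libraries spread more than the Dahomey ones. The log2 fold change was 1.56 (SE 0.23, adjusted p = 8.15e-05) in Alstonville and 1.04 (SE 0.23, adjusted p = 0.0024) in Dahomey larvae for Ugt303B3, 1.33 (SE 0.19, adjusted p = 6.82e-05) in Alstonville and 1.01 (SE 0.19, adjusted p = 9.47e-04) in Dahomey larvae for Ugt303B1, and 1.55 (SE 0.31, adjusted p = 8.09e-04) in Alstonville and 1.16 (SE 0.31, adjusted p = 0.00717) in Dahomey larvae for Ugt303B2. Members of this neighbourhood are close paralogs, and how reads that fit more than 1 of them were assigned is not given.

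Over all 31 tested members 18 rose in both mitotypes and 6 fell. In the neighbourhood of 9 members on 3R 8 genes were tested, Ugt302E1 only through 1:16 P:C. Of these 8 genes, 5 rose in both mitotypes, 1 fell and 2 were not called. Ugt35A1, the most abundant of them, had 38.9, 40.9, 85.3 and 116 CPM in Alstonville and 61.7, 58.6, 58.9 and 74.3 CPM in Dahomey larvae on 1:2 P:C, and 145, 165, 149.7 and 144 CPM in Alstonville and 129, 86.9, 133 and 119.8 CPM in Dahomey larvae on 1:16 P:C. In Alstonville larvae on 1:2 P:C replicates 3 and 4 were well above the other pair, and the diets still did not overlap in either mitotype. Ugt35A1 rose by 1.10 (SE 0.29, adjusted p = 0.00481) in Alstonville and 0.89 (SE 0.29, adjusted p = 0.0199) in Dahomey larvae, a call that was lost in Dahomey larvae without 1:2 P:C replicate 2 or without 1:16 P:C replicate 3 (adjusted p = 0.062 and 0.0523). Ugt35B1, Ugt35E1 and Ugt302C1 rose by 3.36, 3.54 and 1.32 in Alstonville larvae (adjusted p = 0.0204, 0.00476 and 0.00533) and by 4.35, 2.95 and 1.39 in Dahomey larvae (adjusted p = 0.00855, 0.0159 and 0.00539). Ugt35B1 and Ugt35E1 had at most 4.18 and 1.57 CPM on 1:2 P:C, both in Alstonville replicate 4, whereas Ugt302C1 already had 13.3 to 53.7 CPM there and reached 39.6 to 71.4 CPM on 1:16 P:C. Ugt35B1 lost its call in Alstonville larvae without 1:2 P:C replicate 3 (adjusted p = 0.0529), and its fold change was 6.23 without replicate 4, where that of Ugt35E1 was 4.55. In Dahomey larvae that of Ugt35B1 was 5.20 without 1:2 P:C replicate 2.

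Ugt302K1, at the edge of this neighbourhood, fell. It had 4.03, 5.59, 5.82 and 4.99 CPM in Alstonville and 12.2, 8.07, 10.4 and 7.65 CPM in Dahomey larvae on 1:2 P:C, and 1.84, 2.37, 1.42 and 1.29 CPM in Alstonville and 2.73, 6.03, 2.93 and 2.5 CPM in Dahomey larvae on 1:16 P:C. Every 1:16 P:C library was below every 1:2 P:C library of its mitotype, the nearest being Dahomey 1:16 P:C replicate 2. Ugt302K1 changed by -1.56 (SE 0.29, adjusted p = 4.54e-04) in Alstonville and -1.43 (SE 0.29, adjusted p = 0.0013) in Dahomey larvae, while Ugt302E1, which starts 776 bases away on the other strand, had ratios of means of 20.6 and 20.9. At the opposite edge Ugt304A1 and Ugt303A1, formerly Ugt86Dj and Ugt86Dh, were described because the study lists them. Ugt304A1 had 10.1, 10.1, 17.8 and 18.7 CPM in Alstonville and 15.4, 12, 15.8 and 26.6 CPM in Dahomey larvae on 1:2 P:C, and 19, 20.6, 19.7 and 19.1 CPM in Alstonville and 16.7, 13.7, 14.6 and 14.1 CPM in Dahomey larvae on 1:16 P:C. Ugt303A1 had 13.5, 15.5, 35 and 36.4 CPM in Alstonville and 23.1, 20.5, 23.7 and 44.4 CPM in Dahomey larvae on 1:2 P:C, and 36.1, 33.2, 37.2 and 33 CPM in Alstonville and 28.9, 21.7, 21.7 and 22.4 CPM in Dahomey larvae on 1:16 P:C. Both genes were high in Alstonville 1:2 P:C replicates 3 and 4 and in Dahomey 1:2 P:C replicate 4. Ugt304A1 differed between diets by 0.47 (SE 0.24, adjusted p = 0.106) in Alstonville and -0.24 (SE 0.24, adjusted p = 0.445) in Dahomey larvae, and Ugt303A1 by 0.47 (SE 0.31, adjusted p = 0.2) in Alstonville and -0.24 (SE 0.31, adjusted p = 0.557) in Dahomey larvae, none of which passed.

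**Figure D4:**
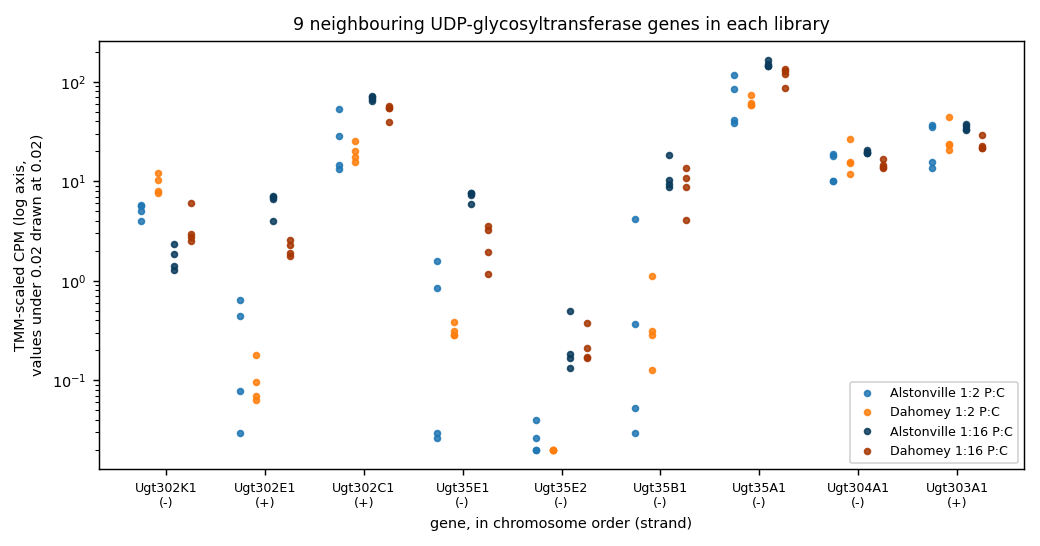
TMM-scaled CPM (y axis, log scale, with values under 0.02 drawn at 0.02) of the 9 neighbouring UGT genes of chromosome arm 3R, in chromosome order with their strand (x axis), 1 point per library and 4 libraries per group. Levels span from 0 counts for Ugt35E2 on Dahomey 1:2 P:C to 165 CPM for Ugt35A1, and Ugt302K1 is lower on 1:16 P:C where Ugt302E1 beside it is higher.

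Neighbouring members did not always share a direction. Of the 16 adjacent pairs within neighbourhoods, 9 had both members called in both mitotypes, and of these 6 moved the same way and 3 opposite ways. Among the 24 members called in both mitotypes 18 rose and 6 fell, so most pairs would share a direction wherever they lay. The pair counts therefore give no result about neighbours. The opposite pairs were Ugt302K1 with Ugt302E1 (tested only through 1:16 P:C), Ugt37A2 with Ugt37A3, and Ugt36D1 with Ugt36E1. The last pair lies on the same strand with only 53 bases between the genes. Ugt36D1 fell, as given below, and Ugt36E1 rose by 0.77 (SE 0.29, adjusted p = 0.0366) in Alstonville and 1.29 (SE 0.29, adjusted p = 0.0028) in Dahomey larvae, from 2.11 to 6.12 CPM to 6.39 to 10.6 CPM. The rise of Ugt36E1 in Alstonville larvae lost its call under both other scalings, with a minimum of 10 counts, and without 1:2 P:C replicate 1, 2 or 4 or 1:16 P:C replicate 4. CG17597, with which it shares 48 exonic bases, had 54.1 to 299 CPM over all libraries.

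The 6 members that fell included the most abundant ones of the 1:2 P:C diet. Ugt301D1 (2L, 18509560 to 18513512, plus strand) had 246, 232, 54.1 and 53.1 CPM in Alstonville and 181, 238, 248 and 81.4 CPM in Dahomey larvae on 1:2 P:C, and 33.3, 36.9, 28.4 and 28.6 CPM in Alstonville and 31.2, 37.6, 29 and 29.1 CPM in Dahomey larvae on 1:16 P:C. The 1:16 P:C libraries of both mitotypes lay close together, while on 1:2 P:C Alstonville replicates 3 and 4 and Dahomey replicate 4 were far below the others. The diets did not overlap. Ugt301D1 changed by -2.20 (SE 0.49, adjusted p = 0.00166) in Alstonville and -2.56 (SE 0.50, adjusted p = 0.00107) in Dahomey larvae. Ugt36D1 (2L, 18823548 to 18826716, plus strand) had 182, 147, 58.7 and 21 CPM in Alstonville and 114, 123, 163 and 48.1 CPM in Dahomey larvae on 1:2 P:C, and 18.9, 16.5, 12.3 and 11.7 CPM in Alstonville and 8.78, 26.1, 8.17 and 5.98 CPM in Dahomey larvae on 1:16 P:C. The same 3 libraries were low on 1:2 P:C, and Dahomey replicate 2 was the highest on 1:16 P:C, again without overlap of the diets within a mitotype. Ugt36D1 changed by -2.78 (SE 0.64, adjusted p = 0.0021) in Alstonville and -3.19 (SE 0.65, adjusted p = 0.00146) in Dahomey larvae, and by -3.87 in Dahomey larvae without that last library.

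Smaller falls were measured with less spread. Ugt316A1 (3L, 19059400 to 19062816, minus strand) had 59, 55.1, 53.2 and 62.2 CPM in Alstonville and 74, 70.2, 64.6 and 55.9 CPM in Dahomey larvae on 1:2 P:C, and 38.2, 43.9, 39.6 and 40.6 CPM in Alstonville and 41.8, 52.2, 48.7 and 47.6 CPM in Dahomey larvae on 1:16 P:C. No 1:16 P:C library reached a 1:2 P:C library of its own mitotype. Ugt316A1 changed by -0.50 (SE 0.09, adjusted p = 4.50e-04) in Alstonville and -0.48 (SE 0.09, adjusted p = 0.00113) in Dahomey larvae, the narrowest error of any member. Ugt50B3, whose long gene model (2R, 5496674 to 5549543, plus strand) has TpnC4 inside it, changed by -0.67 and -0.54 (adjusted p = 0.00205 and 0.00966), within a range of 5.68 to 12.3 CPM over all libraries. Of the members called in neither mitotype, Ugt307A1 and Ugt36F1 were low, with 0.0526 to 1.2 and 0.0402 to 0.669 CPM over the 16 libraries.

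Ugt317A1, formerly Ugt58Fa, rose in both mitotypes and also differed between them. It lies alone at 2R, 22641786 to 22643917, minus strand, and it had 9.44, 8.51, 6.03 and 11.1 CPM in Alstonville and 10.6, 12.7, 9.3 and 7.11 CPM in Dahomey larvae on 1:2 P:C, and 31, 23.2, 27 and 22.3 CPM in Alstonville and 16.1, 13.4, 17.1 and 14 CPM in Dahomey larvae on 1:16 P:C. On 1:16 P:C all Alstonville libraries were above all Dahomey libraries, and both groups were above every 1:2 P:C library. From 1:2 to 1:16 P:C it rose by 1.56 (SE 0.20, adjusted p = 2.39e-05) in Alstonville and 0.61 (SE 0.20, adjusted p = 0.0191) in Dahomey larvae. The Dahomey call was lost without 1:16 P:C replicate 3 (adjusted p = 0.0556). On 1:16 P:C Dahomey larvae differed from Alstonville larvae by -0.77 (SE 0.20, adjusted p = 0.0187).

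On the 1:16 P:C diet 3 of 31 members were called between the mitotypes, against 15.3% of all genes. One was higher in Dahomey larvae (6.01% of all genes) and 2 were lower (9.3% of all genes). Besides Ugt317A1 these were Ugt302K1, with 1.03 (SE 0.29, adjusted p = 0.0284), and Ugt36A1, with -0.70 (SE 0.19, adjusted p = 0.0256), which is named here after its values were seen. Ugt36A1 had 4.35, 5.11, 7.21 and 8.73 CPM in Alstonville and 5.79, 6.42, 5.32 and 5.35 CPM in Dahomey larvae on 1:2 P:C, and 14.1, 8.76, 12.7 and 12 CPM in Alstonville and 7.22, 7.61, 7 and 7.35 CPM in Dahomey larvae on 1:16 P:C. All Dahomey libraries on 1:16 P:C were below all Alstonville libraries, and those of Dahomey differed little among themselves. CG15418, which shares 400 exonic bases with Ugt36A1, had 0.0830 to 0.420 CPM over all libraries. From 1:2 to 1:16 P:C Ugt36A1 rose by 0.91 (SE 0.19, adjusted p = 0.00116) in Alstonville larvae and had 0.35 (SE 0.19, adjusted p = 0.151) in Dahomey larvae. Ugt305A1, the other member called in Alstonville larvae alone, rose there by 1.26 (SE 0.34, adjusted p = 0.00575) and had 0.57 (SE 0.33, adjusted p = 0.179) in Dahomey larvae, with 9.99 to 35.5 CPM on 1:2 P:C and 23.2 to 51.7 CPM on 1:16 P:C over both mitotypes.

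The sign of the difference on 1:16 P:C was mostly the same, although few members passed. Of the 31 tested members 24 had a lower fitted level in Dahomey than in Alstonville larvae and 7 a higher one, where 48.0% of all genes had a higher one. The median log2 fold change of the members was -0.41 where that of all genes was -0.03. The mitotypes had no overlapping libraries for 18 of 31 members (44% of all genes). With RLE or upper-quartile in place of TMM scaling 23 members were lower, Ugt301D1 having changed sign. The share of called genes that were higher in Dahomey larvae, over all genes, was 39.2% with TMM, 52.2% with RLE and 69.8% with upper-quartile scaling, the last of which moved the median of all genes by 0.13. Markers of stage and tissue moved with this comparison too. The 6 glue genes were all called higher in Dahomey larvae on 1:16 P:C, although their sum overlapped between the mitotypes but for Dahomey replicate 2. Lsp2 was higher in every Dahomey library, by 6.53 (adjusted p = 0.005), and Fbp1 was called at 6.87 (adjusted p = 0.0263), with 5262 CPM in Dahomey replicate 2 and at most 13.8 CPM elsewhere on this diet. The testis sums did not overlap (12.6 to 37.1 CPM in Dahomey and 0.266 to 4.48 CPM in Alstonville larvae), with 0 of 7 tested genes called. No midgut gene was called, and 2 of 10 Malpighian tubule genes were lower. Mitotype, stage and sex of the larvae therefore cannot be told apart here, and the part of these tissues in the UGT differences was not tested. Among the members lower in each Dahomey library were Ugt49C1, at -1.50 (adjusted p = 0.0754), Ugt303B3, at -0.67 (adjusted p = 0.0629), and Ugt302E1, at -1.53 (adjusted p = 0.115).

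The count of 3 changed when single libraries were left out, also ones of the other diet, while the 3 members kept their sign. The shares of all genes called with 1 library left out are not given here. No member was called without Alstonville 1:16 P:C replicate 1 or 3 or without Dahomey 1:16 P:C replicate 2, 1 was called without replicate 4 of either group, and 6 were called without Alstonville 1:2 P:C replicate 1 or 4. Fitted on the 8 libraries of the 1:16 P:C diet alone, 16 members were called, 4 higher and 12 lower in Dahomey larvae, where 40.4% of all genes were called, 24.4% higher and 16.1% lower. With the 3 libraries that stood apart left out, 4 were called (21.7% of all genes), and the fold change of Ugt302K1 was 0.65 (adjusted p = 0.0612), as it was without Dahomey 1:16 P:C replicate 2 alone (adjusted p = 0.09). Ugt36A1 lost its call with upper-quartile scaling (adjusted p = 0.0513) and without any 1 library of the diet other than Alstonville replicate 2 (adjusted p up to 0.0843), and Ugt317A1 without Alstonville replicate 1 or 3 or Dahomey replicate 2 or 4 (adjusted p up to 0.0647).

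**Figure D5:**
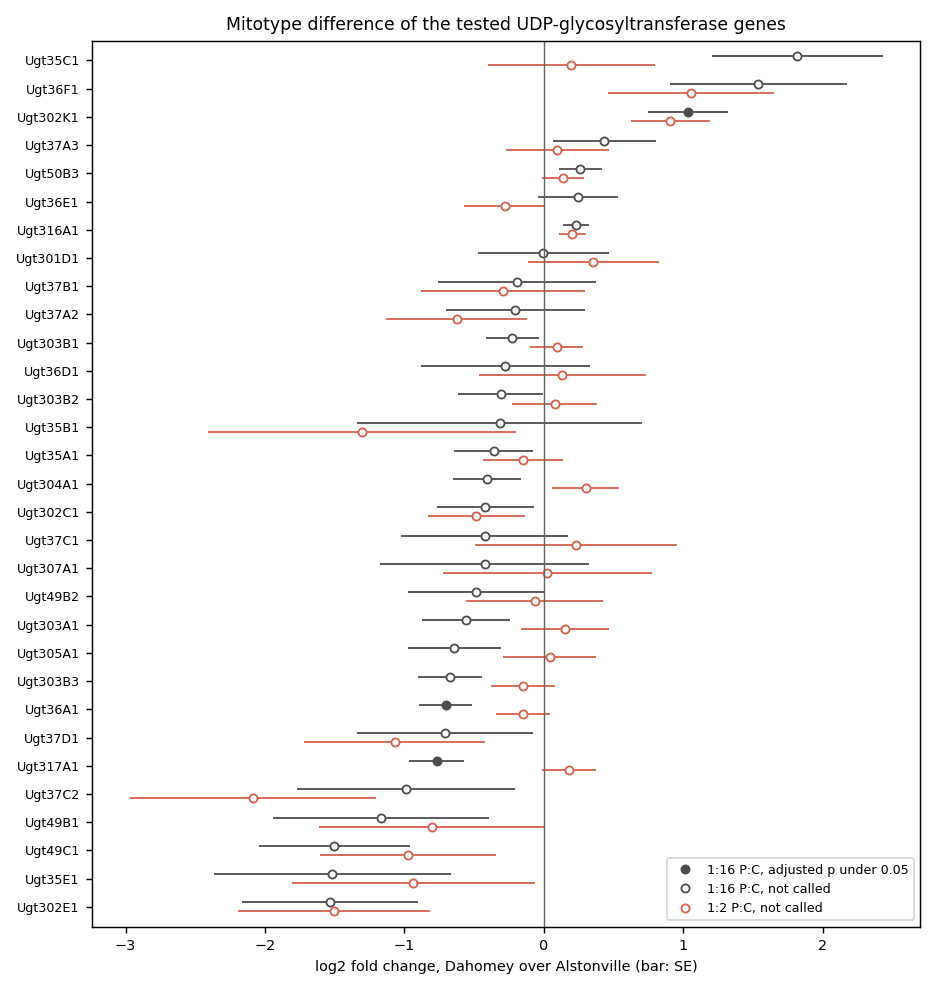
Log2 fold change of Dahomey over Alstonville larvae (x axis, points, with SE bars) for the 31 tested UGT genes (y axis, ordered by the value on 1:16 P:C), on 1:16 P:C (grey) and 1:2 P:C (red), 4 libraries per group. The 3 filled points passed an adjusted p of 0.05, all on 1:16 P:C, where 24 of 31 genes lay below 0.

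Ugt35C1 went the other way, and it is singled out after its values were seen. The gene (3R, 11126597 to 11128328, minus strand) had 3.5, 10.9, 19.8 and 31.5 CPM in Alstonville and 27.6, 8.89, 5.06 and 33.7 CPM in Dahomey larvae on 1:2 P:C, and 26.1, 26.7, 28.1 and 29.2 CPM in Alstonville and 99.5, 68.9, 133 and 86.7 CPM in Dahomey larvae on 1:16 P:C. On 1:2 P:C both mitotypes spread widely and overlapped, whereas on 1:16 P:C the 4 Alstonville libraries were almost equal and the Dahomey libraries were all far above them. The log2 fold change of Dahomey over Alstonville larvae on 1:16 P:C was 1.82 (SE 0.61, adjusted p = 0.0607), short of the threshold. It passed on the 8 libraries of that diet alone (1.91, adjusted p = 0.00101), with upper-quartile scaling, with a minimum of 10 counts, in DESeq2 and in limma with 2 surrogate variables. It did not pass with RLE scaling (1.87, adjusted p = 0.0558), with no filter, in limma without surrogate variables or with a replicate block. From 1:2 to 1:16 P:C Ugt35C1 rose by 2.37 (SE 0.63, adjusted p = 0.00678) in Dahomey larvae and differed by 0.75 (SE 0.60, adjusted p = 0.286) in Alstonville larvae, and the difference between these responses was 1.62 (SE 0.85, adjusted p = 0.403).

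On the 1:2 P:C diet no member was called between the mitotypes by edgeR, where 0.0941% of all genes were, and DESeq2 and limma called none either. At an unadjusted p under 0.05 there were 4 of 31 members (4.4% of all genes), namely Ugt302K1, Ugt37C2, Ugt316A1 and Ugt302E1. Of these Ugt302K1 alone had groups that did not overlap, being higher in each of the 4 Dahomey libraries. The share of all genes with no overlap on this diet was not counted, so this gives no result about the gene. Its log2 fold change of Dahomey over Alstonville larvae on 1:2 P:C was 0.91 (SE 0.28, adjusted p = 0.581), beside the called 1.03 on 1:16 P:C. The median over the 31 members was 0.03, equal to that of all genes to 2 decimals. For the mitotypes on this diet the study includes UDP-glycosyltransferase activity among its top gene ontology terms, from a fit with surrogate variables. The term is a larger set of genes than these members, and the study counted only a few of them as changed. These were higher in Dahomey larvae by the heading of the study's list, while its legend gives the opposite direction. Ugt304A1, Ugt303A1 and Ugt317A1, which the study lists, differed here by 0.30, 0.15 and 0.18 in edgeR (adjusted p = 0.976 for each).

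The diet response of no member differed between the mitotypes at an adjusted p under 0.05 in edgeR, where 0.784% of all genes did. One member, Ugt317A1, had an unadjusted p under 0.05 (15.2% of all genes), with an interaction of -0.95 (SE 0.28, adjusted p = 0.112). It passed in DESeq2, which called no other member, and limma without surrogate variables called none. Limma with 2 surrogate variables, the kind of fit the study used, called 9 members, all negative, Ugt317A1 among them (-0.94, adjusted p = 0.00766), where 28.4% of all genes were called. Without Alstonville 1:2 P:C replicate 4 Ugt37C1 was called (-2.47, adjusted p = 0.0368), and without the 3 libraries that stood apart Ugt317A1 and Ugt37C1 (9.18% of all genes). The share of called genes with a positive interaction, over all genes, was 48.0% with TMM, 63.1% with RLE and 83.2% with upper-quartile scaling, and among the members these moved the sign of Ugt302E1 alone.

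Several genes that supply the sugar donor also differed between the diets. Pgm1, the phosphoglucomutase, rose from 1:2 to 1:16 P:C by 2.07 in Alstonville and 1.98 in Dahomey larvae (adjusted p = 0.00238 and 0.00436). The hexokinase gene Hex-C rose by 2.70 and 2.35 (adjusted p = 1.92e-05 and 1.52e-04). The gene of the UDP-glucose dehydrogenase, sgl, rose by 1.05 and 0.70 (adjusted p = 2.84e-05 and 0.0011), and that of the UDP-sugar transporter Efr by 1.25 and 1.15 (adjusted p = 8.24e-04 and 0.00221), where the median of all genes was -0.11 and -0.12. UGP makes UDP-glucose itself. UGP had 62.2, 64.1, 67 and 149 CPM in Alstonville and 72, 82.3, 69.2 and 64.3 CPM in Dahomey larvae on 1:2 P:C, and 158, 184, 159 and 157 CPM and 138, 100.02, 151 and 139 CPM on 1:16 P:C. As for many members, Alstonville 1:2 P:C replicate 4 was the high library of its group and Dahomey 1:16 P:C replicate 2 the low one. UGP rose by 0.94 (adjusted p = 0.00443) in Alstonville and 0.87 (adjusted p = 0.00911) in Dahomey larvae. The second hexokinase gene, Hex-A, was not called in either mitotype (adjusted p = 0.053 and 0.103). The transporter gene frc had no count in any library, and whether its reads were lost in the assignment to genes is not known. Between the mitotypes on 1:16 P:C Hex-C was called, at -1.68 (adjusted p = 0.00495).

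Known regulators of detoxification genes were also followed. Of 6 tested genes, 2 rose and 2 fell from 1:2 to 1:16 P:C in Alstonville larvae, and 3 fell in Dahomey larvae, with medians of 0.05 and -0.31. Over all genes 30.6% rose and 29.3% fell in Alstonville larvae, and 24.4% fell in Dahomey larvae, so that the shares of the Alstonville list lay near those of all genes. The fallers in both were ss, the dioxin receptor homologue, at -2.05 and -1.10 (adjusted p = 1.46e-04 and 0.012), and its partner tgo, at -0.99 and -0.87 (adjusted p = 2.62e-05 and 1.77e-04). The gene cnc, the homologue of Nrf2, was called in Dahomey larvae alone, at -0.46 (adjusted p = 0.00273), beside -0.18 in Alstonville larvae (adjusted p = 0.14). Its partner maf-S and the xenobiotic receptor gene Hr96 rose by 0.51 and 0.50 in Alstonville larvae (adjusted p = 1.63e-04 and 0.0379) and had 0.05 and -0.15 in Dahomey larvae (adjusted p = 0.642 and 0.558). Keap1, the inhibitor of cnc, was not called (adjusted p = 0.0886 and 0.346). On 1:16 P:C maf-S and Hr96 were lower in Dahomey than in Alstonville larvae, with -0.40 and -0.68 (adjusted p = 0.00712 and 0.0301), and ss was higher, with 1.03 (adjusted p = 0.0466). None of the 6 was called for the difference in diet response between the mitotypes.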

How the data were processed

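Whole-larva RNA-seq was compared over 16 libraries, 4 per group, described by the submitters as independent. The authors deposited counts per gene, made with Subread against the Release 6 plus ISO1 MT assembly and featureCounts (version not given in the sources used here). The extraction text in the labels speaks of sorted cells, the methods of whole larvae. From the counts as deposited, edgeR 4.0.16 (R 4.3.3) was used with TMM scaling, a minimum of 0.25 CPM in at least 4 libraries, 1 coefficient per group and the robust quasi-likelihood F-test, with Benjamini-Hochberg adjustment over 12750 genes. The test was chosen in place of the limma fit of the study because the files hold counts. SEs were obtained by dividing each absolute log2 difference by the root of its F value. The script was tested on simulated data.

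Members and gene lists were chosen with earlier results of these data known. Values in every library were given for the 14 called members with the smallest adjusted p, the 5 with the highest CPM per kb, and Ugt304A1, Ugt303A1 and Ugt317A1, which the study lists, 19 genes in all. Alternatives were RLE and upper-quartile scaling, other filters, DESeq2 1.42.0, limma 3.58.1 with and without 2 surrogate variables, a replicate block, the 8 libraries compared alone, an adjusted p of 0.01 and each library left out. No sequence was used here, and 1 gene of the sugar supply list, with the counts over that list, is not reported here. Counting error alone is covered by the limit of 3 counts, and reads without molecular identifiers are not independent molecules.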

Additional observations from a re-analysis of the deposited data

Results flagged for a closer look

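Over the 19 UGT genes given by library, 76 sets of 4 libraries were searched for a library far from the other 3. There were 10 such sets. The rule marks about 1 in 20 sets of independent normal values, but the 76 sets share the same 16 libraries. The count of 10 therefore cannot be set against that rate. Alstonville 1:2 P:C replicate 4 was high for Ugt37D1 (37.5 CPM, the others 2.62 to 8.13), Ugt37C1 (0.603 CPM, the others at most 0.0527) and Ugt49C1 (1.57 CPM, the others at most 0.323). Dahomey 1:16 P:C replicate 2 was low for Ugt37B1 (2.31 CPM, the others 5.03 to 5.46) and high for Ugt36D1 (26.1 CPM, the others at most 8.78) and Ugt302K1 (6.03 CPM, the others at most 2.93). For Ugt303A1, Dahomey 1:2 P:C replicate 4 had 44.4 CPM where the others had at most 23.7, and Dahomey 1:16 P:C replicate 1 had 28.9 CPM where the others had at most 22.4. Alstonville 1:16 P:C replicate 2 was low for Ugt302E1 (4.03 CPM, the others at least 6.61), and Alstonville 1:16 P:C replicate 3 was high for Ugt303B3 (44.5 CPM, the others at most 39.8). The causes were not tested.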

How the results depend on the processing

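Between diets, the direction of every called member was kept under each alternative and with each library left out. Of the 26 members called in Alstonville larvae, 24 passed in all alternatives that tested them, and with a minimum of 10 counts in every library 17 were called, that filter leaving fewer members to test. All 25 called in Dahomey larvae passed in every alternative that tested them, and 23 with every library left out in turn. Without Alstonville 1:2 P:C replicate 4 the Alstonville fold changes of 10 members, taken off the log scale, were over 1.5 times larger. Among them were Ugt49B1 (log2 value 5.43 for 4.15) and Ugt37C2 (log2 value 5.69 for 3.63). Between mitotypes on 1:16 P:C 3 members were called. The count was 17 in limma with 2 surrogate variables (50.9% of all genes) and 16 on the 8 libraries alone (40.4% of all genes). It was 5 with a minimum of 10 counts, 8 in DESeq2, 5 in limma, 0 at an adjusted p of 0.01, and 0 to 6 with 1 library left out. The shares of all genes under these last settings are not given here. For the interaction, where none was called, the count was 1 in DESeq2 (6.82% of all genes) and 9 in limma with 2 surrogate variables (28.4% of all genes). It was 2 without the 3 libraries that stood apart (9.18% of all genes), an alternative chosen after seeing the data, and 0 to 1 with 1 library left out. On 1:2 P:C it was 0 throughout. The causes of these shifts were not tested. Same-numbered libraries did not pair throughout (correlations of deviations from -0.81 to 0.75). Between mitotypes on 1:16 P:C 3 of 4 libraries correlated best with the same-numbered one. This held for 0 of 4 on 1:2 P:C, and between diets for 0 of 4 in Alstonville and 1 of 4 in Dahomey. With a replicate block 0, 3, 26, 25 and 0 members were called on 1:2 P:C, on 1:16 P:C, between diets in Alstonville, in Dahomey and for the interaction. Members at a few counts per library, such as Ugt37C1 on 1:2 P:C, are limited by depth.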
